A study of Mus musculus with 32 samples.

Results

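The brain-enriched microRNAs described here are 10 mature microRNAs known for their high level in brain: miR-9-5p, miR-9-3p, miR-124-3p, miR-128-3p, miR-137-3p, miR-138-5p, miR-129-5p, miR-132-3p, miR-384-5p and miR-218-5p. They were chosen by name, and all 10 were found among the 1907 mature microRNAs of the small RNA files (identical copies joined). The cells were hybrid mouse embryonic stem cells (ESCs, day 0, grown with serum and LIF) and the neurons induced from these ESCs by a doxycycline-driven TetO-Ngn2 transgene (iNs, day 10). Control cells had the genotype Mirg(fl/+) and deletion cells Mirg(Delta/+), which lack the microRNAs miR-379 to miR-410 on the maternal allele. Each of the 4 combinations had 3 small RNA libraries and 3 RNA-seq libraries with ribosomal RNA depleted, and the labels do not say whether replicates A, B and C were separate cultures or clones. Ago2 CLIP, which recovers RNA crosslinked to the microRNA-binding protein Ago2, was made from control iNs with untagged or HA-tagged Ago2.

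MicroRNAs are cut from hairpin transcripts by Drosha and Dgcr8 and then by Dicer1, and 1 arm of the duplex is loaded into an Argonaute protein, where its seed (bases 2 to 8) pairs with target mRNAs. In the nervous system miR-124 and miR-9 are known for repressing non-neuronal programs such as the REST complex and Ptbp1, miR-128 and miR-137 for roles in neuronal maturation and excitability, miR-132 and miR-138 for dendrite and spine growth, and miR-218 for its part in motor neurons.

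The mature sequences below show which of the 10 can share targets through a common seed, since seed-sharing microRNAs add to the same pool. They are from RefSeq (GRCm38.p6 table), which held 9 of the 10, written 5′ to 3′ with the seed in capitals.
miR-9-5p: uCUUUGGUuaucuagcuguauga
miR-9-3p: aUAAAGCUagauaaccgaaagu
miR-128-3p: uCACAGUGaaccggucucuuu
miR-137-3p: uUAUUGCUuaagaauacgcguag
miR-138-5p: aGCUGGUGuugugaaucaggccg
miR-129-5p: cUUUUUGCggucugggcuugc
miR-218-5p: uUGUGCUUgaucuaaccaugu
miR-132-3p: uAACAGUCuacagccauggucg
miR-212-3p (shares the seed of miR-132-3p): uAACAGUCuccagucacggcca
miR-384-5p: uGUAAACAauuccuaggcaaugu
miR-30a-5p (shares the seed of miR-384-5p): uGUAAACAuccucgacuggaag
miR-30c-5p (shares the seed of miR-384-5p): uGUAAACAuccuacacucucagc
miR-30e-5p (shares the seed of miR-384-5p): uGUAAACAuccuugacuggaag

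No 2 of the 9 shared a seed with each other. The hairpins of the 10 lie at 17 places on GRCm38 and several are within genes. Mir9-1 (chr3:88215598-88215686) lies in the noncoding gene Gm3764, Mir9-2 (chr13:83738814-83738885) lies in the noncoding gene C130071C03Rik, and Mir9-3 (chr7:79505264-79505353) in Mir9-3hg. Mir128-1 (chr1:128202361-128202430) lies in R3hdm1, Mir128-2 (chr9:112118636-112118711) in Arpp21, Mir218-1 (chr5:48223942-48224051) in the axon guidance gene Slit2, and Mir218-2 (chr11:35616816-35616925) in its relative Slit3. Mir138-2 (chr8:94324311-94324381) lies in the nuclear pore gene Nup93 and Mir129-2 (chr2:94241364-94241453) in the noncoding gene Mir670hg. Mir124a-1 (chr14:64590657-64590741) and Mir124a-2 (chr3:17795662-17795770) lie in their own noncoding hosts, Mir124a-1hg and Mir124-2hg. No annotated gene other than microRNA entries overlapped Mir137 (chr3:118433857-118433929), Mir138-1 (chr9:122682876-122682974), Mir132 (chr11:75173682-75173747), Mir384 (chrX:105344282-105344369), Mir129-1 (chr6:29022619-29022691) or Mir124a-3 (chr2:180894040-180894107) on the same strand, or on either strand where the table gives none.

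Small RNA libraries held 3038112 to 4216346 counts, and the share of mature microRNAs among them was 18.0 to 27.9% for ESC libraries, 37.0 to 38.6% for control iNs and 29.02 to 30.12% for deletion iNs. Levels are given in CPM, the counts scaled to a common library size of mature microRNA counts by TMM. Each of the 9 listed sequences is 21 to 23 bases long, so no length correction is needed to compare them, but differences in cloning efficiency between sequences were not measured. The cell labels were checked in the RNA-seq libraries. The summed CPM of 6 pluripotency markers was 1734 to 2001 in ESC libraries and 4.85 to 9.25 in iN libraries, and that of 6 neuronal markers was 42.1 to 52.2 in ESCs and 3589 to 3873 in iNs. The glial marker sum was 8.51 to 10.99 CPM in ESCs and 41.5 to 52.1 CPM in iNs, where Gfap was at 0 in all 6 libraries and the sum was mostly Mbp.

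In control cells, iNs carried more of 9 of the 10 microRNAs than ESCs, and only miR-129-5p among the 10 was lower (edgeR quasi-likelihood test, adjusted p under 0.05). Of the 9, miR-132-3p passed the filter on low counts through the iN libraries, so its direction was set by the filter. The members' counts are read against a wide change of the whole population: 41.5% of the 523 microRNAs tested were called higher and 44.2% lower (85.7% in either direction). The members' median log2 fold change was 4.07, against -0.24 over all tested. The 10 together were 0.571 to 0.684% of all mature counts in the control ESC libraries and 6.23 to 6.70% in the control iN libraries. In bulk libraries such as these, fewer cells of a type and less RNA per cell cannot be told apart.

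**Figure D1:**
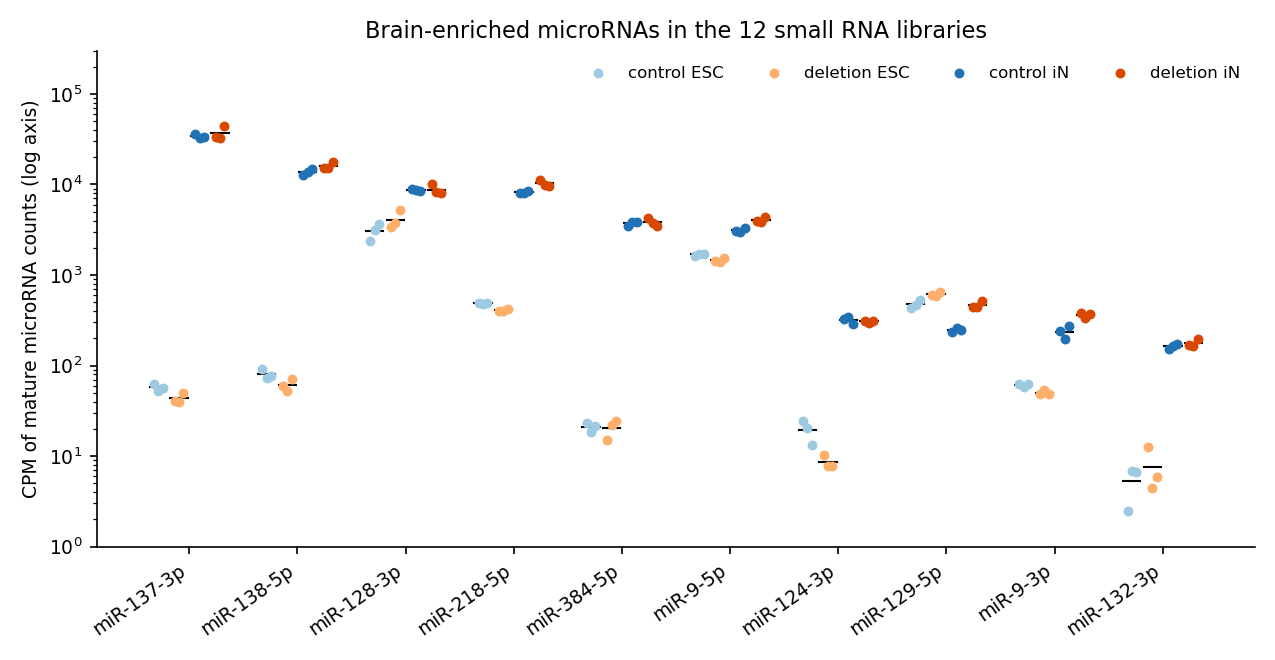
CPM of each of the 10 microRNAs (log axis) in every small RNA library, coloured by group, with the group mean as a black bar. miR-137-3p goes from the 39.8 to 62.6 CPM of the ESC libraries to at least 32628 CPM in every iN library, while miR-129-5p is the only member whose control iN points lie below its control ESC points.

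miR-137-3p, which comes from a single hairpin and is known for targets such as Ezh2, Mib1 and Kdm1a, had the widest range. Its level was 62.6, 52.7 and 56.3 CPM in control ESCs A, B and C and 36212, 32628 and 33218 CPM in control iNs. The groups were far apart, with a 591-fold difference (log2 9.21 ± 0.20 SE, adjusted p = 1.99e-14, edgeR). It ranked 294th among all microRNAs by mean CPM in control ESCs and 5th in control iNs, and was 2.96 to 3.08% of mature counts there. In deletion cells the levels were 40.6, 39.8 and 49.4 CPM in ESCs and 33554, 32861 and 44505 CPM in iNs.

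miR-138-5p and miR-384-5p rose almost as much. miR-138-5p, known for its dendritic localisation and its target Lypla1, had 92.1, 73.4 and 77.1 CPM in control ESCs and 12714, 13654 and 14678 CPM in control iNs (169-fold, log2 7.40 ± 0.20 SE, adjusted p = 1.66e-13, edgeR). miR-384-5p had 23.3, 18.3 and 21.5 CPM in control ESCs and 3491, 3814 and 3823 CPM in control iNs (174-fold, log2 7.44 ± 0.20 SE, adjusted p = 1.66e-13, edgeR). Neither microRNA's groups came near each other. In deletion cells miR-138-5p had 51.9 to 70.7 CPM in ESCs and 15045 to 17788 CPM in iNs, and miR-384-5p had 15.1 to 24.2 and 3517 to 4255 CPM.

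miR-132-3p, miR-218-5p and miR-124-3p formed a middle group by fold change. miR-132-3p, an activity-regulated microRNA, was at the edge of detection in control ESCs with 2.46, 6.88 and 6.63 CPM and had 154, 166 and 175 CPM in control iNs (29.3-fold, log2 4.87 ± 0.31 SE, adjusted p = 1.08e-09, edgeR). That direction was set by the filter on low counts, which miR-132-3p passed through the iN libraries. miR-218-5p had 489, 478 and 489 CPM in control ESCs and 8065, 7994 and 8455 CPM in control iNs (16.8-fold, log2 4.07 ± 0.15 SE, adjusted p = 3.14e-12, edgeR). miR-124-3p had 24.6, 20.6 and 13.3 CPM in control ESCs and 327, 342 and 290 CPM in control iNs (16.7-fold, log2 4.06 ± 0.25 SE, adjusted p = 5.77e-10, edgeR). miR-218-5p and miR-124-3p thus rose by nearly the same fold, but their levels in iNs were far apart: miR-218-5p ranked 27th and miR-124-3p 167th among all microRNAs in control iNs. miR-124-3p, among the most abundant microRNAs of adult brain, was below 6 of the other 9 members in control iNs, with no overlap of libraries with any of the 6.

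miR-9 and miR-128 were already present in ESCs and rose less. miR-128-3p was the highest member in ESCs, with 2401, 3106 and 3692 CPM in control ESCs, and had 8804, 8663 and 8455 CPM in control iNs (2.80-fold, log2 1.48 ± 0.17 SE, adjusted p = 9.06e-07, edgeR). miR-9-5p had 1630, 1708 and 1725 CPM in control ESCs and 3083, 2962 and 3332 CPM in control iNs (1.85-fold, log2 0.89 ± 0.14 SE, adjusted p = 2.49e-05, edgeR). miR-9-3p, from the other arm of the same hairpins, had 62.6, 57.3 and 63.0 CPM in control ESCs and 240, 194 and 277 CPM in control iNs (3.87-fold, log2 1.95 ± 0.22 SE, adjusted p = 7.94e-07, edgeR). In all 3 cases every iN library was above every ESC library.

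miR-129-5p went the other way. It had 429, 462 and 534 CPM in control ESCs and 237, 261 and 245 CPM in control iNs, with no overlap, and fell by 0.95 on the log2 scale (± 0.18 SE, adjusted p = 0.000121, edgeR). The deletion cells had 603, 589 and 651 CPM in ESCs and 442, 448 and 516 CPM in iNs, and the fall there was 0.45 (± 0.16 SE, adjusted p = 0.0142, edgeR). The 3p arm of one of its hairpins, miR-129-2-3p, had 25.2 to 33.2 CPM in control ESCs and 13.1 to 16.9 CPM in control iNs, and fell by 0.91 (± 0.28 SE, adjusted p = 0.00703, edgeR), a call lost with the DESeq2 test (adjusted p = 0.0802), when scaled to all small RNA features (adjusted p = 0.247) and without control iN library A (adjusted p = 0.0505, edgeR). Scaled to all small RNA features instead of mature microRNAs, which moved the median of all microRNAs from -0.24 to 0.25, the fall of miR-129-5p in control cells was 0.47 with an adjusted p of 0.0704. In deletion cells its call was lost with that scaling, with DESeq2 size factors, with no filter on low counts and without deletion iN library A (adjusted p = 0.109) or B (adjusted p = 0.0755, edgeR).

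In deletion cells the same comparison of iNs with ESCs also called 9 of the 10 higher and 1 lower, beside 41.3% higher and 46.6% lower (87.9% either way) of 453 microRNAs tested. Here miR-132-3p and miR-124-3p passed the filter on low counts through the iN libraries, so their direction was set by the filter. The log2 fold changes ran from -0.45 for miR-129-5p to 9.68 ± 0.24 SE for miR-137-3p (819-fold), with a median of 4.48. These libraries are separate from those of the control comparison. The 9 rises in each genotype were called under each alternative run on the summed copies. With identical copies kept apart, those of miR-9-5p differed in direction, as given with its copies.

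**Figure D2:**
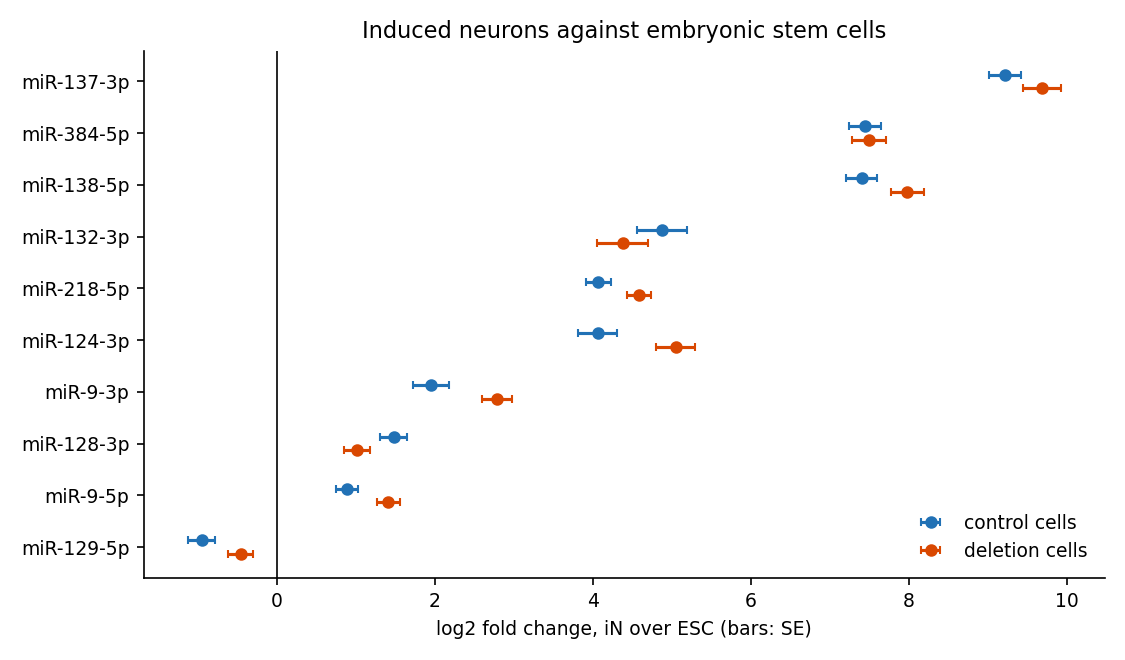
Log2 fold change of iN over ESC for each of the 10 microRNAs, in control cells (blue) and deletion cells (orange), with bars of 1 SE. Both genotypes give the same direction for each microRNA, from -0.95 and -0.45 for miR-129-5p to 9.21 and 9.68 for miR-137-3p.

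The order of levels changed between the cell types. In control ESCs it was miR-128-3p, miR-9-5p, miR-218-5p, miR-129-5p, miR-138-5p, miR-9-3p, miR-137-3p, miR-384-5p, miR-124-3p and miR-132-3p, and the libraries of miR-218-5p and miR-129-5p, of miR-9-3p and miR-137-3p, and of miR-384-5p and miR-124-3p overlapped. In control iNs it was miR-137-3p, miR-138-5p, miR-128-3p, miR-218-5p, miR-384-5p, miR-9-5p, miR-124-3p, miR-129-5p, miR-9-3p and miR-132-3p, with overlap only between miR-128-3p and miR-218-5p and between miR-129-5p and miR-9-3p among neighbours. In deletion iNs, miR-218-5p (mean 10267 CPM ± 930.1 SD, n = 3) stood above miR-128-3p (8750 CPM ± 1157 SD, n = 3), but their libraries overlapped.

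The opposite arms of the hairpins were measured in the same libraries. The 2 arms of miR-384 were both abundant: miR-384-3p had 8.03 to 14.7 CPM in control ESCs and 1696 to 1811 CPM in control iNs, and rose by 7.18 (± 0.23 SE, adjusted p = 6.05e-13, edgeR). Its ratio of 5p to 3p counts was 2.06 to 2.24 in control and 1.94 to 2.63 in deletion iNs. miR-137 was nearly all 3p, with 131566 counts of miR-137-3p and 104 counts of miR-137-5p summed over the 3 control iN libraries. Of the 12 opposite arms, 6 passed the filter on low counts in control cells. Among these, miR-137-5p, miR-138-1-3p and miR-138-2-3p passed it through the iN libraries, so their direction was set by the filter.

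miR-138 is made from 2 hairpins with the same 5p sequence, and the 3p arms tell them apart. miR-138-2-3p had 237, 304 and 245 CPM in control iNs and miR-138-1-3p 66.1, 66.5 and 71.4 CPM, with 1.23, 0 and 4.14 CPM of the former in control ESCs. miR-138-1-3p was at 0 in all 6 ESC libraries, so its level in control iNs was at least 65.5-fold higher than the limit set by 3 counts over the control ESC group. Counts from both hairpins were thus seen in iNs.

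miR-124 showed a change between its arms. In control ESCs miR-124-5p had 40.5, 65.3 and 61.3 CPM, more than miR-124-3p in each library, and in control iNs it had 239, 253 and 266 CPM, less than miR-124-3p in each. The 3p arm made up 24.7% of both arms' counts in control ESCs and 11.5% in deletion ESCs, against 55.7 and 53.6% in the iNs of either genotype. The rise of miR-124-5p was 4.49-fold (log2 2.17 ± 0.22 SE, adjusted p = 2.57e-07, edgeR), beside 16.7-fold for miR-124-3p, and the difference between the arms was not tested.

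For miR-9 the ratio of 5p to 3p counts was 25.8 to 29.6 in control and 26.7 to 31.4 in deletion ESCs. It was 12.04 to 15.2 in control and 10.3 to 11.7 in deletion iNs. Every iN library was below every ESC library in this ratio.

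The deposited miR-9-5p counts came as 3 entries, 1 for each identical copy, and the way reads were divided between them differed between libraries. In 6 of the libraries each copy held 33.3% of the count. In the other 6, the same copy held 82.2 to 98.9%, among them all 3 control iN libraries but only 2 of the 3 deletion iN libraries. Identical sequences cannot be told apart by their reads, so the 3 entries were summed here. Kept apart, the copies gave log2 differences of deletion against control iNs of 2.61 (± 1.18 SE, adjusted p = 0.124), -0.04 (± 0.36 SE, adjusted p = 0.958) and 2.61 (edgeR), where the sum gave 0.39. In control iNs against control ESCs the copies gave -2.20 (± 0.93 SE, adjusted p = 0.0451), 1.49 (± 0.41 SE, adjusted p = 0.00627) and -2.20 (edgeR), where the sum rose by 0.89. In deletion cells they gave 0.03 (± 0.84 SE, adjusted p = 0.972), 2.51 (± 0.40 SE, adjusted p = 0.000287) and 0.03 (edgeR). In these expected counts the direction of miR-9-5p thus rests on summing its copies. The authors' deposited DESeq2 tables list the copies apart. For deletion against control iNs they give 0.78, 0.21 and 0.46, with adjusted p of 0.000494, 0.765 and 0.269. For control iNs against control ESCs they give rises in all 3 copies, of 0.88, 1.39 and 0.89 (adjusted p of 0.000248, 9.41e-06 and 0.00388, the authors' DESeq2). The expected counts of the other 6 members with several hairpins were divided equally between copies in all 12 libraries.

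**Figure D3:**
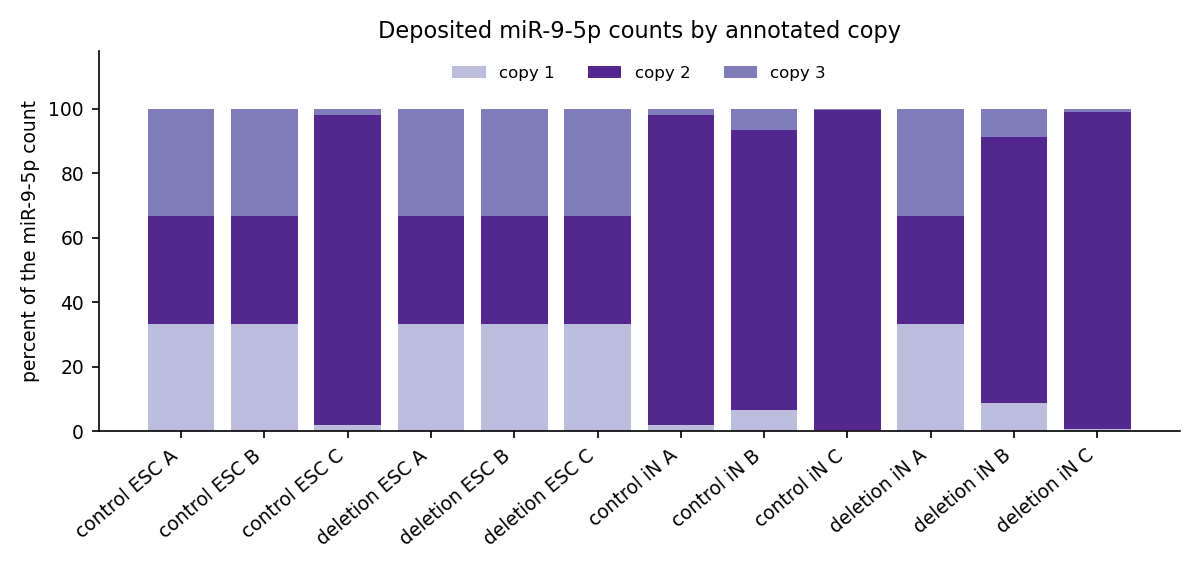
Share (percent) of each library's miR-9-5p count that the deposited file assigns to each of its 3 annotated copies. Copies hold equal shares in 6 libraries, and copy 2 holds 82.2 to 98.9% in the other 6.

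Through its seed, miR-384-5p joins the miR-30 family. In control ESCs it made up 0.444 to 0.622% of the summed CPM of miR-384-5p, miR-30a-5p, miR-30c-5p and miR-30e-5p, and in control iNs 35.7 to 37.6%. The sum itself was 3753 to 4127 CPM in control ESCs and 9774 to 10369 CPM in control iNs. It holds only the relatives in the RefSeq table, which is not complete. Any relative missing there would raise the sum and lower the share of miR-384-5p. Among the relatives, miR-30a-5p rose 2.96-fold and miR-30c-5p 2.12-fold, while miR-30e-5p had a log2 difference of -0.14 ± 0.15 SE (adjusted p = 0.391, edgeR). miR-7002-3p, which the RefSeq table lists with the seed of miR-218-5p, was not followed here. miR-212-3p, which shares the seed of miR-132-3p, had 3.84 to 8.09 CPM in control iNs, so that miR-132-3p was 95.6 to 97.6% of their sum.

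The RNA-seq libraries held 14904735 to 21499106 counts and give the level of the genes that overlap the hairpins. RNA-seq of whole genes measures spliced and unspliced host RNA, not the hairpins, and the strand setting of the counting was not given, so antisense reads are not separated. Of the 11 host genes, 9 were tested in control iNs against control ESCs, of which 4 were called higher and 2 lower, beside 43.9% higher and 45.1% lower (89.0% either way) of 17247 genes tested. Among these, Arpp21 and Mir124-2hg passed the filter on low counts through the iN libraries and C130071C03Rik through the ESC libraries. Their directions were thus set by the filter.

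**Figure D4:**
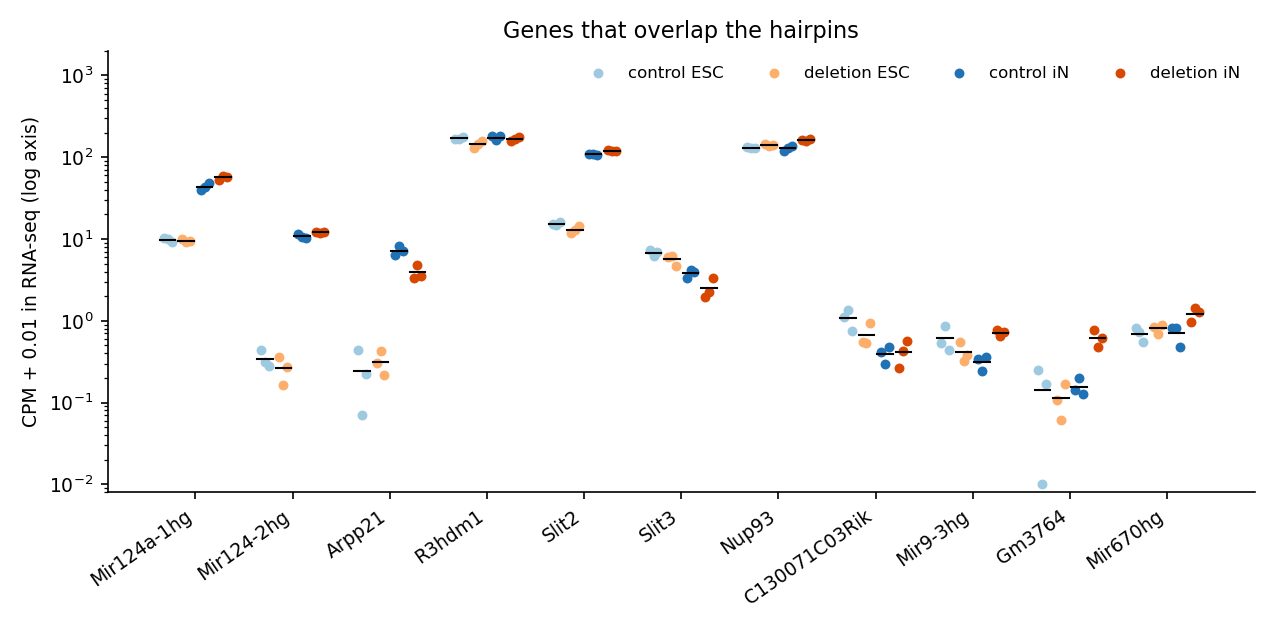
CPM + 0.01 (log axis) of the 11 genes that overlap the hairpins in every RNA-seq library, coloured by group, with the group mean as a black bar. The hosts of miR-124, Arpp21 and Slit2 are higher in all iN libraries than in all ESC libraries, and the 3 hosts of miR-9 stay at or below 1.33 CPM in every library.

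Mir124a-1hg had 10.2, 10.1 and 9.17 CPM in control ESCs and 40.0, 42.8 and 48.0 CPM in control iNs (4.42-fold, log2 2.14 ± 0.09 SE, adjusted p = 1.86e-10, edgeR). Mir124-2hg had 0.428, 0.302 and 0.267 CPM in control ESCs and 11.5, 10.4 and 10.3 CPM in control iNs (31.2-fold, adjusted p = 7.21e-11, edgeR). Both hosts rose, as did miR-124-3p.

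For miR-218 the hosts moved apart. Slit2 had 14.9 to 15.9 CPM in control ESCs and 107 to 109 CPM in control iNs (7.04-fold, log2 2.82 ± 0.06 SE, adjusted p = 1.88e-13, edgeR), while Slit3 had 6.16 to 7.28 and 3.28 to 4.15 CPM and fell by 0.83 (± 0.15 SE, adjusted p = 0.000151, edgeR). The hosts of miR-128 also differed. Arpp21, a neuronal RNA-binding protein gene, rose 28.4-fold from 0.0604 to 0.428 CPM up to 6.29 to 8.12 CPM (adjusted p = 1.02e-08, edgeR), and R3hdm1 had 167 to 177 CPM in control ESCs and 162 to 181 CPM in control iNs (log2 0.02 ± 0.06 SE, adjusted p = 0.783, edgeR).

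The hosts of miR-9 were close to absent. C130071C03Rik had 0.746 to 1.33 CPM in control ESCs and 0.283 to 0.465 CPM in control iNs and fell by 1.47 (± 0.36 SE, adjusted p = 0.00209, edgeR), although miR-9-5p was at 1630 to 1725 and 2962 to 3332 CPM in the small RNA libraries of the same groups. Mir9-3hg and Gm3764 did not pass the filter on low counts in this comparison. Nup93 (log2 -0.02 ± 0.06 SE, adjusted p = 0.715, edgeR), whose gene holds Mir138-2, and Mir670hg (-0.0015 ± 0.34 SE, adjusted p = 0.997, edgeR), whose gene holds Mir129-2, had values near 0.

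A list of 24 textbook targets of the members was read in the same libraries, and 23 could be tested. In control iNs 14 were called lower and 8 higher, with a median log2 fold change of -1.83 against -0.03 for all genes, beside the 45.1% lower and 43.9% higher of all genes. In either direction together, the share of targets called was near the 89.0% of all genes. By direction, more targets were called lower than higher, and whether this split differs from that of all genes was not tested. Rest, the repressor of neuronal genes, had 611 to 654 CPM in control ESCs and 4.15 to 5.40 CPM in control iNs and was 128.3-fold lower (adjusted p = 5.10e-15, edgeR). Ptbp1, the splicing repressor targeted by miR-124, had 577 to 607 and 22.6 to 24.0 CPM (25.8-fold lower, adjusted p = 5.79e-15, edgeR).

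The cell cycle kinase gene Cdk6 (23.2-fold), the phosphatase gene Ctdsp1 (18.6-fold), Hes1 (18.1-fold), Jag1 (11.6-fold), the Polycomb methyltransferase gene Ezh2 (10.5-fold), Lamc1 (9.76-fold) and the chromatin-remodelling subunit gene Actl6a (9.44-fold) fell as well. Lypla1, a target of miR-138, was 3.95-fold lower. Among the 8 that rose, the microtubule protein gene Map1b, a target of miR-9, was 15.2-fold higher, the transcription factor gene Sox9 5.66-fold, the axon guidance receptor gene Robo1, a target of miR-218, 2.28-fold, the ubiquitin ligase gene Mib1 2.03-fold, the integrin gene Itgb1 1.88-fold and the REST corepressor gene Rcor1 1.27-fold. Ctdspl had a log2 difference of 0.14 ± 0.10 SE (adjusted p = 0.176, edgeR), and Nr2e1 was at 0 in 11 of the 12 libraries.

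The deposited Ago2 CLIP lists hold 22432 regions each, each with the authors' log2 fold and −log10 p; 1 list compares HA-Ago2 with its input and the other with immunoprecipitates of untagged Ago2, and replicates are not kept apart. Regions overlapped 5 of the members' hairpins by at least 1 base. The region at Mir137 (chr3:118433900-118433927 on mm10), which covers the whole miR-137-3p, had a log2 fold of 2.65 over untagged Ago2 and 3.06 over input in the authors' deposited lists. The regions at Mir138-1 (chr9:122682894-122682925) and Mir138-2 (chr8:94324311-94324357) had 1.80 and 1.45 over untagged Ago2 and 4.79 and 4.86 over input. For comparison, the median over all regions of the authors' deposited lists was -0.13 over untagged Ago2 and 2.22 over input.

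The other 2 regions, at Mir9-2 (chr13:83738785-83738820) and Mir124a-1 (chr14:64590625-64590669), had a log2 fold below 0 over untagged Ago2 in the authors' deposited lists, -1.27 and -0.65. The region at Mir9-2 ends just before the first base of miR-9-5p. The region at Mir124a-1 reaches only into the start of the hairpin's interval (chr14:64590657-64590741). No strand or mature position was given for that hairpin, so the region's value cannot be read as one for miR-124-3p. A positive fold over untagged Ago2 was thus listed for 3 of the 5 regions, beside 9632 of all 22432. Their −log10 p over untagged Ago2 in the authors' deposited lists was 3.07 at Mir137, 2.13 at Mir138-1 and 0.926 at Mir138-2. Matches of the seeds within the Ago2 regions were not analysed here.

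The deletion of the cluster was compared within each cell type to see whether microRNAs outside it moved. In iNs, 4 of the 10 members were called higher in deletion cells and none lower, beside 16.9% higher and 24.2% lower (41.1% either way) of 433 microRNAs tested. The members' median was 0.19, against -0.03 over all tested. The 4 were miR-129-5p, miR-9-3p, miR-9-5p and miR-218-5p.

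miR-129-5p had 237, 261 and 245 CPM in control iNs and 442, 448 and 516 CPM in deletion iNs, with no overlap (1.91-fold, log2 0.94 ± 0.12 SE, adjusted p = 2.47e-07, edgeR). Its hairpin partner miR-129-2-3p had 13.1, 16.6 and 16.9 CPM against 31.1, 31.7 and 24.8 CPM and rose 1.90-fold (adjusted p = 0.00825, edgeR), a call lost with the DESeq2 test (adjusted p = 0.0524), scaled to all small RNA features (adjusted p = 0.0518) and without control iN library A (adjusted p = 0.0674) or deletion iN library B (adjusted p = 0.0575, edgeR). miR-9-3p had 240, 194 and 277 CPM against 383, 334 and 372 CPM (1.54-fold, log2 0.63 ± 0.14 SE, adjusted p = 0.000424, edgeR). Each of these deletion libraries was above each control library.

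miR-9-5p had 3083, 2962 and 3332 CPM in control iNs and 3936, 3888 and 4347 CPM in deletion iNs (1.31-fold, log2 0.39 ± 0.09 SE, adjusted p = 0.000928, edgeR). miR-218-5p had 8065, 7994 and 8455 CPM against 11340, 9778 and 9684 CPM (1.27-fold, log2 0.34 ± 0.09 SE, adjusted p = 0.00252, edgeR). Without control iN library A the difference of miR-218-5p was 0.26 with an adjusted p of 0.0841, and without B it was 0.26 with an adjusted p of 0.0781 (edgeR). The authors' deposited DESeq2 tables, which list copies apart, give 0.41 and 0.37 for miR-218-5p (adjusted p of 0.179 and 0.236). For miR-9-3p they give 1.11, 0.76 and 0.13 (adjusted p of 0.000451, 0.0253 and 0.832). For miR-129-5p they give 0.95 and 1.02 (adjusted p of 0.000349 and 0.000203, all the authors' DESeq2). miR-138-5p had 12714, 13654 and 14678 CPM against 15230, 15045 and 17788 CPM, which do not overlap, but missed the threshold (log2 0.24 ± 0.10 SE, adjusted p = 0.0514, edgeR). It was called without control iN library C (0.31, adjusted p = 0.0316) or deletion iN library A (0.32, adjusted p = 0.0130, edgeR).

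The 3p arms of miR-138 did pass it. miR-138-1-3p rose from 66.1, 66.5 and 71.4 CPM to 152, 145 and 132 CPM (2.12-fold, log2 1.09 ± 0.18 SE, adjusted p = 8.49e-06, edgeR), and miR-138-2-3p from 237 to 304 CPM up to 329 to 350 CPM (1.32-fold, log2 0.40 ± 0.13 SE, adjusted p = 0.0162, edgeR). The ratio of miR-138-2-3p to miR-138-1-3p was 3.41 to 4.56 in control and 2.17 to 2.62 in deletion iNs, without overlap. The call of miR-138-2-3p was lost without control iN library A (adjusted p = 0.142) or deletion iN library B (adjusted p = 0.0975) or C (adjusted p = 0.0606), with no filter, with all 12 libraries in 1 fit and scaled to all features (adjusted p = 0.440, edgeR); that of miR-138-1-3p was not lost under the alternatives run.

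The remaining 5 members had overlapping libraries. Their differences, with a 95% interval from their SE, were 0.14 (-0.08 to 0.35) for miR-137-3p, 0.12 (-0.19 to 0.42) for miR-132-3p, 0.06 (-0.12 to 0.24) for miR-384-5p, 0.03 (-0.15 to 0.21) for miR-128-3p and -0.04 (-0.28 to 0.20) for miR-124-3p. The deletion iN library C was the highest for miR-137-3p at 44505 CPM and library A for miR-128-3p at 10084 CPM. The share of all microRNAs tested in iNs whose libraries did not overlap was not counted. A lack of overlap thus cannot be read as particular to the members.

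These directions depend on what the counts are scaled to. When libraries were scaled to all small RNA features, the median of all microRNAs moved from -0.03 to -0.29 and the calls went from 73 higher and 105 lower to 32 higher and 178 lower. Under that scaling miR-129-5p (0.66, adjusted p = 6.49e-05) and miR-9-3p (0.36, adjusted p = 0.0368) were still called higher, miR-9-5p (0.12, adjusted p = 0.295) and miR-218-5p (0.07, adjusted p = 0.531) were not, and miR-124-3p (-0.31, adjusted p = 0.0394) and miR-128-3p (-0.24, adjusted p = 0.0442, all edgeR) were called lower. The mature share of counts, 37.0 to 38.6% in control and 29.02 to 30.12% in deletion iNs, moved with genotype, and its part in these results was not tested. Pluripotency markers summed to 8.71 to 9.25 CPM in control and 4.85 to 5.63 CPM in deletion iNs, neuronal markers to 3589 to 3807 and 3798 to 3873 CPM, glial markers to 41.5 to 44.4 and 45.8 to 52.1 CPM, and fibroblast markers to 35.9 to 47.3 and 56.3 to 64.4 CPM. Only 2 of the 6 fibroblast markers passed the filter on low counts in iNs, so that sum rests on few genes and need not stand for fibroblasts. The part of these cell markers in the results was not tested either.

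**Figure D5:**
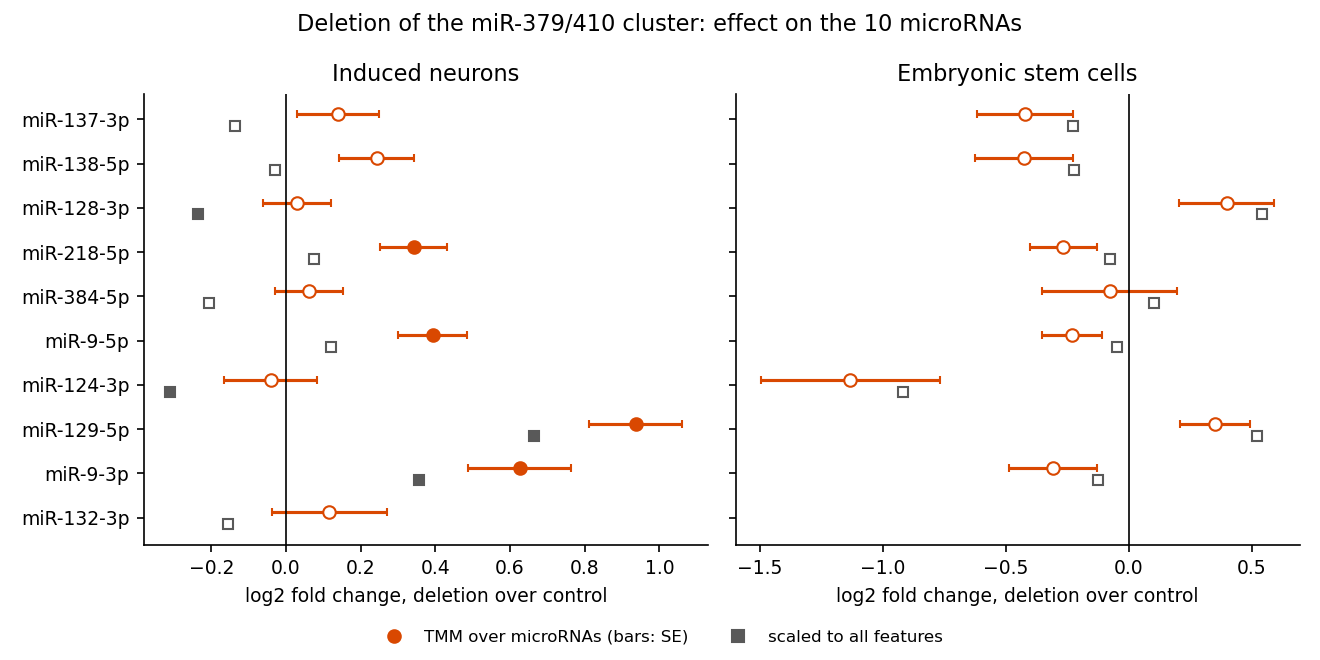
Log2 fold change of deletion over control for each of the 10 microRNAs in iNs (left) and ESCs (right). Circles are TMM-scaled estimates with bars of 1 SE and squares the same test scaled to all features, filled where the adjusted p is under 0.05; in iNs each square lies below its circle, and miR-132-3p was not tested in ESCs.

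In ESCs none of the 9 members tested was called, beside 2.44% higher and 13.8% lower (16.2% either way) of 450 microRNAs tested; miR-132-3p did not pass the filter. At an unadjusted p under 0.05 there were 135 microRNAs over all, and DESeq2 called 14 higher and 70 lower. miR-124-3p had the largest difference of the 9, with 24.6, 20.6 and 13.3 CPM in control ESCs and 10.4, 7.73 and 7.75 CPM in deletion ESCs, which do not overlap (log2 -1.13 ± 0.36 SE, adjusted p = 0.0685, edgeR). In this test miR-124-3p passed the filter on low counts through the control ESC libraries, so its direction was set by the filter. Its call was gained without control ESC library C (-1.33, adjusted p = 0.0338, edgeR), where the filter again set the direction. It was also gained with all 12 libraries in 1 fit (-1.11, adjusted p = 0.0137, edgeR), where the iN libraries pass the filter. The groups also did not overlap for miR-9-5p, miR-9-3p, miR-137-3p, miR-138-5p and miR-218-5p, all lower in deletion ESCs, and for miR-129-5p, higher at 603, 589 and 651 CPM against 429, 462 and 534 CPM (log2 0.35 ± 0.14 SE, adjusted p = 0.135, edgeR). The share of all 450 microRNAs without overlap was not counted, so this cannot be read as particular to the members. In the RNA-seq of ESCs, fibroblast markers summed to 54.0 to 62.6 CPM in control and 92.4 to 102 CPM in deletion cells, and their part in these values was not tested.

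Whether the deletion's effect differed between iNs and ESCs was tested as an interaction over all 12 libraries. For 3 of the 10 members it was called positive and for none negative, beside 2.03% positive and 3.51% negative (5.55% either way) of 541 microRNAs tested. The 3 were miR-9-5p (0.59 ± 0.16 SE, adjusted p = 0.0412), miR-9-3p (0.90 ± 0.25 SE, adjusted p = 0.0429) and miR-218-5p (0.57 ± 0.16 SE, adjusted p = 0.0446, all edgeR). Leaving out any 1 of 11 libraries left none of these calls, and without control iN library C only that of miR-9-3p was left. Scaled to all features, the median of all microRNAs moved from -0.09 to -0.50, calls went from 11 positive and 19 negative to 1 and 47, and no member was called. With copies kept apart, miR-218-5p was called (adjusted p = 0.0236) and the copies of miR-9-3p (adjusted p = 0.0711) and miR-9-5p were not (edgeR).

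The host genes were compared in the same way in the RNA-seq of iNs. Of 9 hosts tested, 4 were called higher in deletion iNs and 1 lower, beside 12.4% higher and 13.3% lower (25.6% either way) of 16028 genes tested. Nup93 had 119, 131 and 136 CPM in control iNs and 162, 159 and 169 CPM in deletion iNs (1.27-fold, log2 0.34 ± 0.06 SE, adjusted p = 0.000524, edgeR). Mir124a-1hg had 40.0, 42.8 and 48.0 CPM against 52.7, 59.4 and 57.5 CPM (1.30-fold, log2 0.38 ± 0.07 SE, adjusted p = 0.00129, edgeR), without a rise of miR-124-3p. Slit2 had 107 to 109 CPM against 119 to 123 CPM (1.12-fold, log2 0.16 ± 0.05 SE, adjusted p = 0.0323, edgeR). Slit3, the other host of miR-218, had 3.28, 4.15 and 3.95 CPM against 1.92, 2.27 and 3.30 CPM, with overlap, and missed the threshold on the lower side (log2 -0.61 ± 0.22 SE, adjusted p = 0.0510, edgeR). It was called lower without control iN library A (-0.70, adjusted p = 0.0401) or deletion iN library C (-0.86, adjusted p = 0.0171, edgeR).

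The miR-9 host Mir9-3hg had 0.335, 0.236 and 0.348 CPM in control iNs and 0.757, 0.633 and 0.710 CPM in deletion iNs (2.30-fold, log2 1.204 ± 0.39 SE, adjusted p = 0.0347, edgeR), and Gm3764, untested for its low counts, had 0.116 to 0.189 and 0.475 to 0.757 CPM. Mir9-3hg passed the filter through the deletion iN libraries, so its direction was set by the filter. The calls of Mir9-3hg and Slit2 were lost in turn without each of several libraries: for Mir9-3hg without any 1 of the 6 (adjusted p from 0.0654 to 0.140) and for Slit2 without any 1 except control iN A (adjusted p from 0.0574 to 0.102 where lost). Arpp21 fell by 0.90 (± 0.17 SE, adjusted p = 0.00116, edgeR), from 6.29, 8.12 and 7.20 CPM to 3.28, 4.85 and 3.55 CPM, while miR-128-3p differed by 0.03 ± 0.09 SE.

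Of the 23 targets tested in deletion against control iNs, 7 were called lower and 3 higher, with a median of -0.08 against 0.0042 over all genes, beside the 13.3% lower and 12.4% higher of all genes. Ptbp1 fell by 0.59 (± 0.08 SE, adjusted p = 8.50e-05, edgeR), from 24.0, 23.0 and 22.6 CPM to 14.9, 15.3 and 15.9 CPM. Sox9, Actl6a, Rest, Phf6, Lypla1 and Rcor1 were the others that fell, by 0.27 to 0.80, and without deletion iN library B only 3 of the 7 calls were left, those of Ptbp1, Lypla1 and Rcor1. Ptbp1 and Lypla1 stayed called without each of the 6 libraries in turn, and the other 5 lost the call without at least 1. Cdk6 rose 1.76-fold from 5.63 to 6.16 CPM up to 9.85 to 10.7 CPM (adjusted p = 0.000117, edgeR), and Ctdsp2 (1.35-fold) and Map1b (1.13-fold) rose as well; Map1b lost its call without control iN B or any deletion iN library. Of the targets of miR-9, Rest fell, Map1b rose, and Hes1 (log2 0.20 ± 0.41 SE) and Foxp1 (0.21 ± 0.10 SE) were not called.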

How the data were processed

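Small RNA-seq (12 libraries) and RNA-seq (12 libraries) were analysed from the expected counts that the authors deposited, as RSEM writes them per the file headers; posterior mean counts, deposited beside them, were an alternative. Per the submitters' processing notes, the tools were RSEM 1.2.30, STAR 2.4.1d, cutadapt 1.4.2, SAMtools and DESeq2, with the build mm10; their roles are not stated there. The library kit attaches molecular identifiers, but whether these were counted is not given in the sources used here. The authors' deposited small RNA tables gave log2 fold changes, adjusted p-values and mean normalised counts (a signal averaged over libraries). The deposited CLIP lists gave −log10 p and log2 fold values per region. Pooling of CLIP replicates and the peak caller are not given in the sources used here.

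MicroRNA names came from matching the authors' mean normalised counts to 1 accession each (relative tolerance 1e-08), which named 826 of 1907 accessions with 99.99% of mature counts. Copies were summed, and counts rounded. Tests used edgeR 4.0.16 in R 4.3.3 (quasi-likelihood, TMM over mature microRNAs or genes, low counts removed by filterByExpr at min.count 10, and p-values adjusted by Benjamini-Hochberg over all features at 0.05) on the 6 libraries compared, or 12 for the interaction. Values in CPM use TMM over 12 libraries, and an SE is the log2 fold change over the root of its F. DESeq2 1.42.0 was an alternative. The tests were tested on simulated data with known changes. Host genes were those overlapping a hairpin by at least 1 base on the same strand in RefSeq GRCm38.p6, or on either strand where none was given.

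The members, lists and tests were chosen with earlier results of these data known. The text names all members and opposite arms, host genes, textbook targets, processing genes, other brain-known microRNAs and the 5 microRNAs whose pattern was most like the members'. Libraries with the same letter did not deviate together with a correlation above 0.1 in every pair of any comparison, so the letters were not taken to pair libraries. Nothing in the labels says that replicates were separate cultures, so a p-value speaks only of library-to-library spread, which may be technical.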

Additional observations from a re-analysis of the deposited data

Results flagged for a closer look

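For 3 of the 10 microRNAs a difference of the deletion effect between cell types was called (interaction term in edgeR, over all 12 small RNA libraries). Of all 541 microRNAs tested, 2.03% were called positive and 3.51% negative (5.55% either way). The deletion effect in iNs minus that in ESCs was 0.59 on the log2 scale for miR-9-5p (adjusted p = 0.0412), from 0.39 in iNs and -0.23 in ESCs. It was 0.90 for miR-9-3p (adjusted p = 0.0429), from 0.63 and -0.31, and 0.57 for miR-218-5p (adjusted p = 0.0446), from 0.34 and -0.27. The effects in ESCs were not called on their own. miR-124-3p (1.05 ± 0.34 SE, adjusted p = 0.0839, edgeR) and miR-138-5p (0.63 ± 0.21 SE, adjusted p = 0.0842, edgeR) missed the threshold. The adjusted p of the 3 ranged from 0.00149 with the DESeq2 test to 0.834 with libraries scaled to all features. None of the 3 calls was left with that scaling, with no filter, with posterior mean counts or without the cluster's microRNAs. When 1 library was left out, at most the call of miR-9-3p was left.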

How the results depend on the processing

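The 9 rises of members from ESCs to iNs kept their call in each genotype under the alternatives run on summed copies. Among these, the direction of miR-132-3p, and in deletion cells that of miR-124-3p, was set by the filter on low counts. With copies kept apart, 2 of the 3 of miR-9-5p turned to -2.20 in control cells and were at 0.03 and not called in deletion cells, and its rise in deletion against control iNs turned to -0.037 in 1 copy and was not called in the other 2. The fall of miR-129-5p did not keep its call: scaled to all small RNA features, 0 members were called lower in control or in deletion cells, and in deletion cells also 0 with DESeq2 size factors or no filter on low counts, and 0 to 1 when 1 library was left out.

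For deletion against control iNs, the number of microRNAs called higher went from 73 to 43 with all 12 libraries in 1 fit, to 32 scaled to all features and to 42 to 74 without 1 library, and the number lower from 105 to 178 scaled to all features and 64 without the cluster's own microRNAs. Scaled to all features, 2 members were called higher and 2 lower, and miR-128-3p turned to -0.24.

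For the deletion in ESCs, 11 microRNAs called higher became 30 with no filter, 21 with all 12 libraries, 1 without the cluster's microRNAs and 3 to 8 without 1 library, and 62 lower became 7 without the cluster's microRNAs. One fit of all 12 libraries called 1 member lower, and leaving out 1 library 0 to 1.

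For the interaction, 11 positive calls became 19 with the DESeq2 test, 7 with no filter, 1 scaled to all features, 5 without the cluster's microRNAs, 6 with posterior mean counts and 2 to 10 without 1 library, and 19 negative calls became 31 with the DESeq2 test, 31 with no filter and 47 scaled to all features. Members called fell from 3 to 0 with no filter, all features, no cluster microRNAs or posterior mean counts, and to 0 to 1 without 1 library.

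Among genes in deletion against control iNs, hosts called lower went from 1 to 2 with no filter, all 12 libraries or 1 library fewer (1 to 2), hosts called higher from 4 to 2 to 4 without 1 library, and targets called lower from 7 to 3 to 6.

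By the rule of a correlation above 0.1 in every pair, library letters were not taken to pair libraries. In ESCs same-letter correlations were 0.353 for A and 0.288 for C but 0.0151 for B. With the letter as a replicate block, the ESC comparison called 60 microRNAs higher and 119 lower, with 2 members higher, miR-128-3p (adjusted p = 0.000183) and miR-129-5p (adjusted p = 0.00813), and 1 lower, miR-124-3p (adjusted p = 0.0176), miR-138-5p was called higher in deletion iNs (adjusted p = 0.0429, edgeR), the interaction called 1 member, and in RNA-seq 2 hosts were called higher and 2 lower. The causes of these changes were not tested. In the ESC comparison with the block, the direction of miR-124-3p was set by the filter on low counts, which it passed through the control libraries. With 3 libraries a group, the low counts of miR-132-3p, miR-124-3p and miR-384-5p in ESCs limit what could be called there.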

Other observations

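The genes that make and load microRNAs were read in the same RNA-seq libraries. Of 7, control iNs had 3 higher than control ESCs and 3 lower, near the 43.9% and 45.1% of all genes. The Argonaute gene Ago4 rose 12.6-fold (log2 3.66 ± 0.20 SE, adjusted p = 1.79e-09, edgeR) and Ago3 2.41-fold, while Ago1 was 2.43-fold lower and Ago2 differed by -0.08 ± 0.05 SE (adjusted p = 0.117, edgeR). Dgcr8 was 2.74-fold and Drosha 1.97-fold lower, and Dicer1 was 1.21-fold higher. In deletion against control iNs only Ago4 of the 7 was called, 1.48-fold higher (log2 0.57 ± 0.12 SE, adjusted p = 0.00248, edgeR).

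A further list of 12 microRNAs known from brain did not move as one. In control iNs against control ESCs 9 could be tested, and 7 were called higher and 1 lower, beside 41.5% and 44.2% of all 523 microRNAs tested. miR-153-3p rose 66.2-fold, miR-488-3p 18.9-fold, miR-125b-5p 12.9-fold and miR-7b-5p 11.03-fold. Of those called higher, miR-153-3p, miR-488-3p and miR-181a-5p passed the filter on low counts through the iN libraries, so their direction was set by the filter. miR-7a-5p, which differs from miR-7b-5p outside the seed, fell 5.42-fold, from 27538, 31292 and 32393 CPM to 6041, 5079 and 5753 CPM. In deletion against control iNs, 5 of 11 tested were called higher and none lower: miR-212-3p, miR-7a-5p, miR-153-3p, miR-7b-5p and miR-488-3p, by 0.56 to 1.06 on the log2 scale, beside 16.9% higher and 24.2% lower of 433. Among them, miR-212-3p passed the filter through the deletion iN libraries, so its direction was set by the filter. Scaled to all small RNA features, miR-7a-5p, miR-153-3p and miR-7b-5p were called higher, and miR-212-3p (adjusted p = 0.113) and miR-488-3p (adjusted p = 0.241, edgeR) were not; both also lost the call without each of several libraries.

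As a description over the 12 libraries, the 5 microRNAs whose log2 CPM followed the mean profile of the 10 members most closely, of 271 candidates, were miR-7b-5p (r = 0.997), miR-185-5p, miR-29a-3p, miR-216a-5p and miR-194-5p. Among these, miR-216a-5p went from 3.31 to 4.59 CPM in control ESCs to 394 to 619 CPM in control iNs and 1303 to 1451 CPM in deletion iNs. Of the members, miR-129-5p had an r of -0.638 with the mean of the other 9, and the rest had 0.924 to 0.991.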
